A study of Arabidopsis thaliana with 6 samples.

Results

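Vesicle trafficking genes were compared between seedlings of the actin mutant actin2-5 and wild-type seedlings of Arabidopsis thaliana. The genes were those with a single-gene probe set whose symbol in the annotation of the ATH1 array, a 3′ expression array, starts with VPS, SEC, EXO70, SYP, VAMP, RAB or SNAP. The rule found 22 genes among the 13356 with a single-gene probe set, each with 1 probe set. Of these, 10 have a VPS symbol, 11 a SEC symbol and 1 a RAB symbol, and 0 have an EXO70, SYP, VAMP or SNAP symbol. Among the 22 genes the SNARE proteins were thus represented only by SEC22. The annotation used here leaves 8730 of the 22746 tested probe sets unnamed, so these counts cover named genes and not all trafficking genes on the array. Symbols do not always name a trafficking protein: SECA2 and SECE1 belong to protein translocation systems inside chloroplasts, and SEC is SECRET AGENT, an enzyme that attaches N-acetylglucosamine to proteins. The other 19 genes encode trafficking proteins.

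The series holds 3 samples of actin2-5, a line also labelled wavy that carries an altered allele of the actin gene ACT2, and 3 samples of wild type, ecotype Columbia. The labels used here name no ecotype for the mutant. All 6 samples were whole seedlings, 8 days old, from plates of dilute Murashige and Skoog medium, and each was hybridised to its own array. All values are probe set signals on the log2 scale that the authors made with RMA (robust multi-array average), which equalises the distributions of the arrays, and a change is the mean of actin2-5 minus the mean of wild type on that scale. The series asks how the actin cytoskeleton is linked to auxin and brassinosteroid signalling. The genotype labels were not checked with ACT2 itself, as 0 of the named probe sets belong to it, and 1 mutant allele was studied.

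In plant cells, vesicles and endosomes carry cell wall material, receptors and hormone transporters to and from the plasma membrane, and actin filaments serve as tracks for much of this movement. Rab GTPases mark each membrane and recruit tethers, the exocyst is the tether that docks secretory vesicles at the plasma membrane, and SNAREs with their Sec1/Munc18 partners fuse the membranes. ESCRT complexes work in the opposite direction: they sort ubiquitinated plasma membrane proteins, auxin carriers among them, into multivesicular endosomes on the way to the vacuole.

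The arrays had medians of 6.42 to 6.46 (log2) and correlated at 0.9902 or more with each other. Signal of the 25S ribosomal RNA control stood apart on actin2-5 arrays 1 and 3, at 10.63 and 9.82, against 7.75 on actin2-5 array 2 and 8.13 to 8.21 in wild type. Among tissue markers, the root hair expansin genes EXPA7 and EXPA18 were lower in actin2-5, by 0.86 and 0.95 on the log2 scale (limma adjusted p = 0.00909 and 0.00636). The third root hair marker, XTH26, was at -0.15. It was dim, between 4.19 and 4.54 on all arrays and so near their lower quartiles of 4.49 to 4.58, and its value says little. The root markers PYK10 and NAI2 were at 0.093 and -0.27, the photosynthesis markers RCA, PRK, LHCB4.1 and LHCB4.2 at -0.093, -0.12, 0.08 and -0.12, and the division markers AUR1 and AUR2 at 0.26 and 0.21; 0 of these 8 passed the test. The part of any of these signals in the values below was not tested.

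None of the trafficking genes passed the test. With limma across all 22746 tested probe sets and Benjamini-Hochberg adjustment, 0 of the 22 genes had an adjusted p under 0.05, where 750 probe sets, or 3.3%, were called over the whole array. At that rate the 22 genes are too few for an absence of calls to set them apart. At an unadjusted p under 0.05 the count was 1 of 22, the exocyst gene SEC15B, beside 15.3% of all tested probe sets. In 4 genes (VPS2.2, SEC15B, SEC10 and RAB6A) the groups did not overlap, 18.2% of the 22, and all 4 were higher in actin2-5. Over the array, 19.2% of probe sets showed no overlap, with 8.35% higher and 10.8% lower in actin2-5. In whole seedlings, fewer cells of a type and less RNA per cell cannot be told apart, for these values and all that follow.

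**Figure D1:**
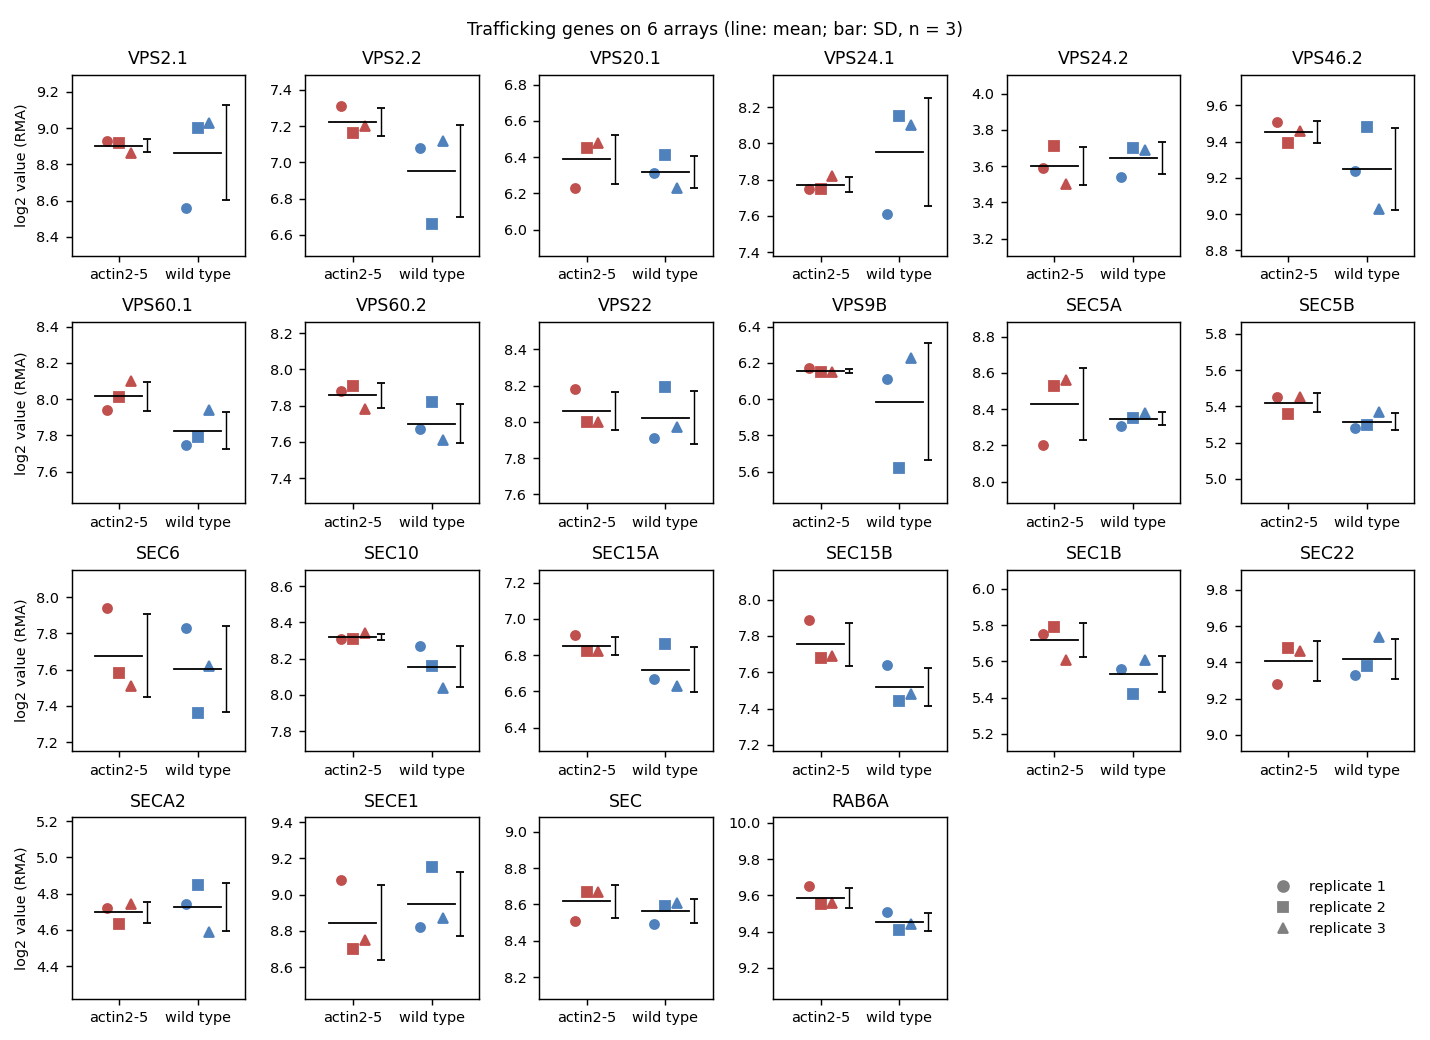
Log2 values (RMA) of the 22 trafficking genes on each array, 1 panel per gene, with actin2-5 in red on the left and wild type in blue on the right. Points are arrays, with shapes for replicate numbers, lines are means and bars the SD (n = 3); every panel spans 1 log2 unit. In most panels the genotypes overlap, and in VPS9B, VPS24.1, VPS2.1 and VPS2.2 a single wild-type array lies apart from the other wild-type arrays.

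The differences were small in both directions. They ran from -0.18 in VPS24.1 to 0.27 in VPS2.2 on the log2 scale, actin2-5 minus wild type, and the median size without sign was 0.12, against 0.093 over all tested probe sets. All 22 of the limma 95% intervals lay inside a 1.5-fold change in either direction, from 0.72-fold at the lower bound of VPS24.1 to 1.46-fold at the upper bound of VPS2.2. That held for 92.1% of all tested probe sets. A tighter band of 1.3-fold held the whole interval of 13 of the 22 genes (59.1%), against 67.4% over the array. Changes smaller than these intervals were not detectable with 3 arrays a group, and since RMA pulls weak signals together, true ratios can be larger than these values.

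**Figure D2:**
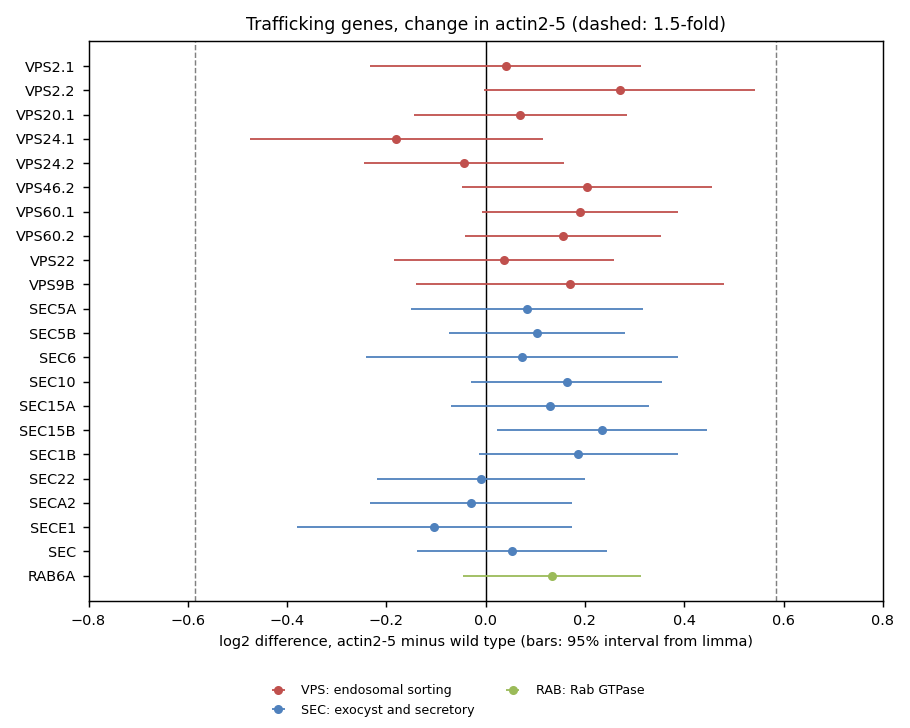
Log2 difference, actin2-5 minus wild type, of each trafficking gene with its 95% interval from limma, coloured by symbol group. All intervals lie inside the dashed lines at 1.5-fold, and that of SEC15B is the interval that leaves out 0.

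More of the 22 genes lay above than below their wild-type mean. The mean was higher in actin2-5 for 17 genes (77.3%) and lower for 5, against 42.5% higher over the array. The array-wide share depends on brightness: among probe sets with a mean of at least 6 it was 49.4%, and 15 of the 18 trafficking genes that bright were higher. The median change was 0.093 for the 22 genes and -0.027 for all tested probe sets. Of the 19 genes with a trafficking role 16 were higher, and of SECA2, SECE1 and SEC 1 was. The differences were of the order of their SEs, which had a median of 0.095, and the counts carry no test.

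**Figure D3:**
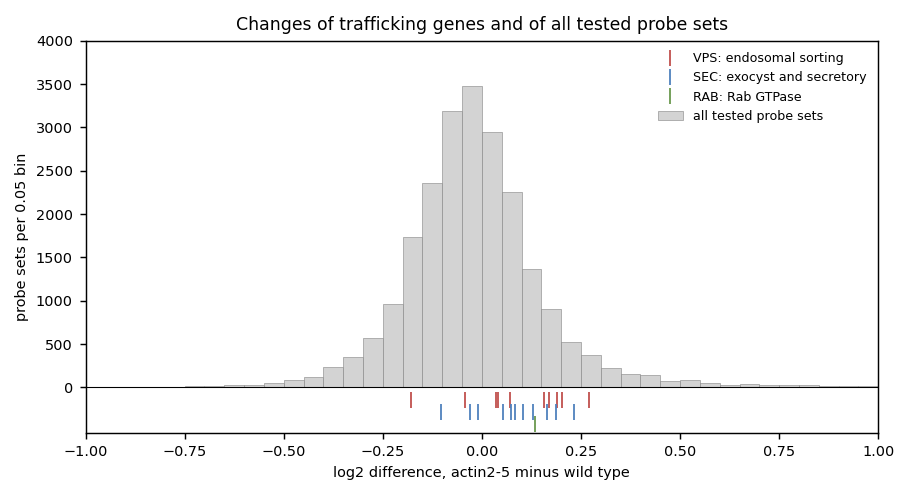
Distribution of the log2 differences, actin2-5 minus wild type, over all tested probe sets (grey bars, probe sets per 0.05 bin), with the 22 trafficking genes as ticks below. The ticks lie between -0.18 and 0.27, and 17 of 22 are right of 0.

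The endosomal sorting group held 10 genes, of which 0 passed the test, 8 were higher and 2 lower, with a median change of 0.11. Over the array 42.5% of probe sets were higher. Of its members, 8 encode proteins of the ESCRT-III family, which assemble into the filaments that pinch vesicles off into the endosome. VPS2.2 (AT5G44560) read 7.31, 7.16 and 7.2 in actin2-5, against 7.08, 6.66 and 7.12 in wild type. Every mutant array was above every wild-type array, but by only 0.04 at the nearest pair, and the low wild-type mean came largely from array 2. The change was 0.27 ± 0.12 (SE from limma over 3 arrays a group, adjusted p = 0.331). It was 0.12 without wild-type replicate 2. Its homologue VPS2.1 (AT2G06530) read 8.93, 8.92 and 8.86 in actin2-5, against 8.56, 9.0 and 9.03 in wild type. Here wild-type array 1 was the low one and the other wild-type arrays lay above all mutant arrays, so the change of 0.04 ± 0.12 turned to -0.11 without that array.

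VPS60.1 (AT3G10640) and VPS60.2 (AT5G04850) encode ESCRT-III-like proteins of the VPS60 type. VPS60.1 read 7.94, 8.01 and 8.10 in actin2-5, against 7.75, 7.79 and 7.94 in wild type. VPS60.2 read 7.88, 7.91 and 7.78 in actin2-5, against 7.67, 7.82 and 7.61 in wild type. In both genes the groups touched or overlapped at a single pair of arrays, and the changes were alike in size, 0.19 ± 0.089 and 0.16 ± 0.089 (adjusted p = 0.348 and 0.458). VPS46.2 (AT1G73030), also known as CHMP1A, of a homologue pair that sorts auxin carriers, read 9.51, 9.39 and 9.46 in actin2-5, against 9.24, 9.48 and 9.03 in wild type. The mutant arrays lay close together. Wild-type array 2 fell among them, and the other wild-type arrays lay below all of them. The change was 0.20 ± 0.11 (adjusted p = 0.45), and it was 0.32 without wild-type replicate 2 and 0.093 without wild-type replicate 3.

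VPS24.1 (AT5G22950), another core subunit of the ESCRT-III filament, had the most negative difference among the 22. It read 7.75, 7.75 and 7.82 in actin2-5, against 7.61, 8.15 and 8.10 in wild type. Wild-type array 1 lay below the mutant arrays and the other wild-type arrays above them. The change was -0.18 ± 0.13 (adjusted p = 0.582), and without wild-type replicate 1 it was -0.35 (adjusted p = 0.061), still over the threshold. Its homologue VPS24.2 (AT3G45000) was dim, between 3.50 and 3.71 on all arrays and so under their lower quartiles of 4.49 to 4.58. At -0.043 ± 0.091, a missing call on a signal that low says little.

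The remaining endosomal genes were VPS20.1, VPS22 and VPS9B. VPS20.1 (AT5G63880), whose yeast counterpart starts the ESCRT-III filament, was at 0.07 ± 0.096, and VPS22 (AT4G27040) of ESCRT-II, which hands cargo to ESCRT-III, was at 0.037 ± 0.10. VPS9B (AT5G09320) has the domain of the exchange factors that switch on Rab5-type GTPases of endosomes. It read 6.17, 6.15 and 6.15 in actin2-5, against 6.11, 5.62 and 6.23 in wild type. The mutant arrays were nearly equal, and the change of 0.17 ± 0.14 (adjusted p = 0.63) came from wild-type array 2: without it the value was -0.013.

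Single wild-type arrays thus lay apart for several of these genes. For the 10 VPS genes the median SD was 0.073 in actin2-5 and 0.19 in wild type, and over all tested probe sets it was 0.085 in actin2-5 and 0.12 in wild type. The mean log2 value of the 10 genes was 7.349, 7.345 and 7.335 on the actin2-5 arrays, against 7.178, 7.282 and 7.295 on the wild-type arrays. Wild-type array 1 was the lowest, through VPS2.1 and VPS24.1, while array 2 was the low one for VPS2.2 and VPS9B, so no single wild-type array was low throughout.

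The 6 exocyst genes all lay above wild type in actin2-5, by 0.073 to 0.23 with a median of 0.12, and 0 passed the test. Over the array 42.5% of probe sets were higher, and 49.4% of those with a mean of at least 6. With array weights or with the 25S covariate, 5 of the 6 genes were higher. SEC15B (AT4G02350) and SEC15A (AT3G56640) encode the subunit that binds Rab GTPases on the vesicle in yeast and animals. SEC15B read 7.89, 7.68 and 7.69 in actin2-5, against 7.64, 7.44 and 7.48 in wild type. All mutant arrays were above all wild-type arrays, the nearest pair 0.04 apart. The change was 0.23 ± 0.095, with the lowest unadjusted p of the 22 genes, 0.0337 (adjusted p = 0.276). It was 0.16 with the 25S value as a covariate and 0.17 without actin2-5 replicate 1, the array with the highest 25S signal. SEC15A read 6.91, 6.82 and 6.82 in actin2-5, against 6.67, 6.86 and 6.63 in wild type. Wild-type array 2 fell among the mutant arrays, and the change was 0.13 ± 0.09 (adjusted p = 0.556).

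SEC10 (AT5G12370), a core subunit of the complex, read 8.31, 8.31 and 8.34 in actin2-5, against 8.27, 8.16 and 8.04 in wild type. The groups did not overlap, with 0.04 between the nearest arrays, and the change was 0.16 ± 0.087 (adjusted p = 0.422). SEC5B (AT1G21170) read 5.45, 5.36 and 5.45 in actin2-5, against 5.28, 5.30 and 5.37 in wild type, a change of 0.10 ± 0.08 (adjusted p = 0.607). The groups overlapped at mutant array 2 and wild-type array 3.

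The values of SEC5A and SEC6 shifted with single arrays. SEC5A (AT1G76850) read 8.2, 8.53 and 8.56 in actin2-5, against 8.31, 8.35 and 8.38 in wild type. Array 1 of the mutant was the lowest of all and the other mutant arrays were the highest, so the change of 0.083 ± 0.11 was 0.20 without that array (adjusted p = 0.385), 0.033 without replicate 2 and 0.018 without replicate 3. SEC6 (AT1G71820) went the other way, at 7.94, 7.58 and 7.51 in actin2-5, against 7.83, 7.36 and 7.62 in wild type. Its array 1 was the highest in both genotypes. The change was 0.073 ± 0.14, and it was -0.058 without actin2-5 replicate 1 and -0.048 without wild-type replicate 2. The mean over the 6 genes was 7.45, 7.38 and 7.395 on the actin2-5 arrays, against 7.333, 7.245 and 7.253 on the wild-type arrays. The genotypes averaged 7.41 ± 0.037 for actin2-5 and 7.28 ± 0.049 for wild type (SD of 3 arrays each), with no overlap and a difference of 0.13. The mean of the VPS genes, given above, did not overlap either, with a difference of 0.091. The exocyst mean was chosen with these values known, and neither mean carries a test. EXO84B, a further exocyst subunit outside the symbol rule, was at 0.023 ± 0.082.

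The other SEC genes went in both directions. SEC1B (AT4G12120), a Sec1/Munc18 protein of the kind that guides SNAREs into fusion, read 5.75, 5.79 and 5.61 in actin2-5, against 5.56, 5.42 and 5.61 in wild type. The groups shared the value 5.61, and the change was 0.19 ± 0.09 (adjusted p = 0.368). SEC22 (AT1G11890), a SNARE of traffic between endoplasmic reticulum and Golgi, read 9.28, 9.48 and 9.46 in actin2-5, against 9.33, 9.38 and 9.54 in wild type. These ranges lay over each other, with a change of -0.01 ± 0.094 (adjusted p = 0.975) and a 95% interval from -0.22 to 0.20. SEC (AT3G04240) was at 0.053 ± 0.086. Of the chloroplast pair, SECE1 (AT4G14870) was at -0.10 ± 0.12. It was at -0.22 without actin2-5 replicate 1 and at -0.0017 without wild-type replicate 2. SECA2 (AT1G21650), between 4.59 and 4.85 on all arrays and so near the lower quartiles, was at -0.03 ± 0.092. The sign of SECA2 turned with repeated quantile normalization.

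RAB6A (AT2G44610), also named RABH1B, is a GTPase of the Golgi apparatus and the 1 Rab gene with a RAB symbol here. It read 9.65, 9.55 and 9.56 in actin2-5, against 9.51, 9.41 and 9.44 in wild type. The mutant arrays were all higher, the nearest pair again 0.04 apart, and the arrays of each group lay within 0.1 of each other. The change was 0.13 ± 0.081 (adjusted p = 0.489), with an interval from -0.046 to 0.31, which leaves out a rise beyond 1.24-fold and a fall beyond 0.969-fold.

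Changes were also compared within 5 pairs of homologues, with tests too coarse to establish that they were alike. The difference between the changes was 0.033 for VPS60.1 minus VPS60.2, -0.23 for VPS2.1 minus VPS2.2, -0.14 for VPS24.1 minus VPS24.2, -0.02 for SEC5A minus SEC5B and -0.10 for SEC15A minus SEC15B. Two-sided exact permutation tests over the 6 arrays gave p = 0.8, 0.5, 0.4, 1 and 0.4 in that order, and adjusted over the 5 pairs the lowest was 0.833. With 3 arrays against 3 these tests cannot go below 0.1, so they show no more than that no pair stood at the limit. The pairs are homologous genes, and none of the 22 probe sets has a suffix that marks probes shared between genes.

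Other genes of the pathway also differed little. They came from 222 symbols in 5 lists, of which most have no probe set named here, and from genes whose other names carry 1 of the prefixes. In all, 37 further genes were measured. Of these 0 were called by limma, beside 3.3% over the array. An unadjusted p under 0.05 was found for 3 of them (8.11%), beside 15.3% over the array. The groups did not overlap in 5 of the 37 (13.5%), beside 19.2% of probe sets over the array. Of these 5 genes, described below, ELC and AP2M were higher in actin2-5, and PRA1.B6, ARLA1A and ECHIDNA were lower. Their mean was higher in actin2-5 for 19 (51.4%) and lower for 18, with a median of 0.01. Over the array 42.5% were higher, and 49.4% among probe sets with a mean of at least 6. Among the 22 genes the share was 77.3%, and the differences between these shares were not tested.

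The list of endosomal sorting genes gave 4 further genes, of which 3 were higher and 1, MAG2, was lower. ELC, the ESCRT-I subunit that binds ubiquitin, read 8.09, 8.16 and 8.05 in actin2-5, against 7.75, 7.79 and 7.99 in wild type. The groups did not overlap, and the change was 0.26 ± 0.091 (adjusted p = 0.196). The ESCRT-III genes SNF7.2 and SNF7.1 were at 0.16 and 0.11. MAG2, on this list though a tether for export from the endoplasmic reticulum, was at -0.12. Outside this list and its counts, VPS36 (AT5G04920), which sits with VPS22 in ESCRT-II, was at -0.16. The ESCRT-I gene VPS37-2 (AT2G36680), also outside it, was at 0.027.

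**Figure D4:**
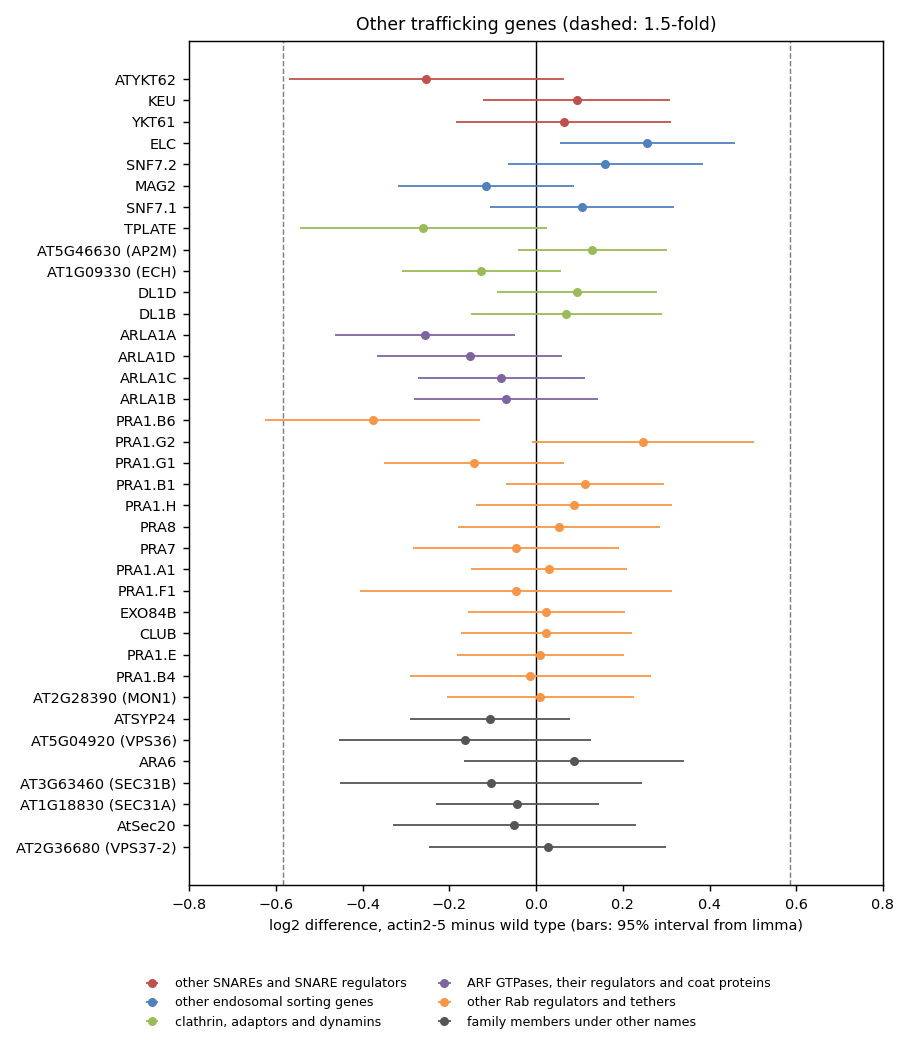
Log2 difference, actin2-5 minus wild type, of 37 other trafficking genes with 95% intervals from limma, coloured by list; a gene on more than 1 list is drawn once. The intervals lie on both sides of 0, and that of PRA1.B6 is the 1 interval that crosses a dashed line at 1.5-fold.

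Among 14 further Rab regulators and tethers, 9 were higher and 5 lower. PRA1.B6, of a family that receives prenylated Rab proteins at membranes, read 8.26, 8.05 and 7.99 in actin2-5, against 8.28, 8.62 and 8.53 in wild type. All mutant arrays were below all wild-type arrays, though by 0.02 at the nearest pair. Its change was -0.38 ± 0.11 (adjusted p = 0.114), and without wild-type replicate 1 it was called, at -0.475 (adjusted p = 0.0442). PRA1.G2 was at 0.25 ± 0.11, and CLUB, a subunit of the TRAPPII tether of the Golgi, was at 0.023. The Rab5-type GTPase ARA6, a plant-specific form of endosomes, was at 0.087 ± 0.11.

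The 4 measured ARF-like genes were all lower, with a median of -0.12, where 13081 of the 22746 tested probe sets were lower over the array. ARLA1A read 7.67, 7.61 and 7.67 in actin2-5, against 7.75, 7.93 and 8.04 in wild type, a change of -0.26 ± 0.093 (adjusted p = 0.21). ARLA1D was at -0.15. In endocytosis, TPLATE, of a plant adaptor complex for clathrin, was at -0.26 ± 0.13 (adjusted p = 0.378), and the gene of the clathrin adaptor subunit AP2M (AT5G46630) was at 0.13. AT1G09330, or ECHIDNA, of the trans-Golgi network, read 9.84, 9.85 and 9.82 in actin2-5, against 9.86, 10 and 10.03 in wild type, without overlap but at -0.13 ± 0.083 (adjusted p = 0.528). Of 3 further SNARE genes and regulators, ATYKT62 was at -0.25, the Sec1/Munc18 gene KEU (KEULE) at 0.093 and YKT61 at 0.063. ATYKT62 was dim at a mean of 4.35, and its change was -0.065 without wild-type replicate 2. The syntaxin gene ATSYP24, dim at a mean of 4.21, was at -0.11, and AtSec20 at -0.05. The genes of the COPII coat protein SEC31, SEC31B (AT3G63460) and SEC31A (AT1G18830), were at -0.10 and -0.043, with SEC31A dim at a mean of 4.02.

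The alternatives tried gave no calls either, which says little for so few genes. There were 16 alternative settings of the limma fit. The setting without actin2-5 arrays 1 and 3 leaves a single mutant array, so the counts by p leave it out. In each of the others 0 of the trafficking genes were called, where 283 to 999 probe sets were called over the array. Between 0 and 4 had an unadjusted p under 0.05, beside 10.4% to 19.3% of all tested probe sets. Between 15 and 18 genes were higher, the lowest counts coming with dimmer genes left out, when 15 of 18 were higher, and without wild-type replicate 1, when 15 of 22 were. In 15 of the 22 genes the sign held in every setting, and the other 7 (VPS9B, VPS24.2, VPS22, VPS2.1, SEC6, SECA2 and SEC22) turned sign in at least 1. The limit of 1.5-fold on the intervals was less firm: it was passed by 1 gene without actin2-5 replicate 2, actin2-5 replicate 3 or wild-type replicate 1, by 2 without wild-type replicate 3, and by 6 without actin2-5 arrays 1 and 3 together.

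**Figure D5:**
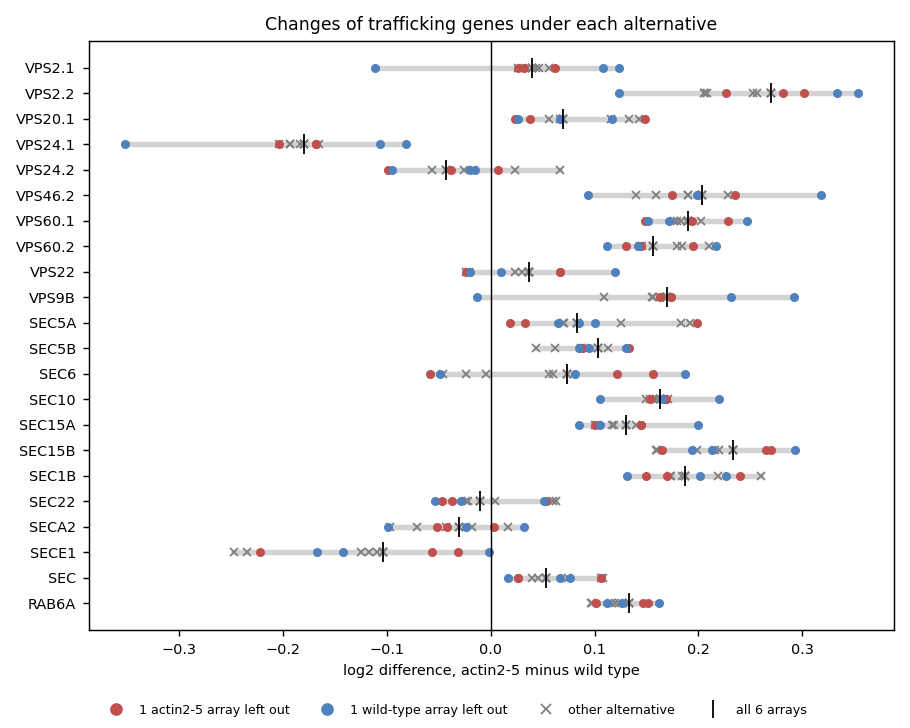
Log2 difference, actin2-5 minus wild type, of each trafficking gene with all 6 arrays (black ticks), with 1 actin2-5 array left out (red), with 1 wild-type array left out (blue) and under the other alternatives (grey crosses). Among points with 1 array left out, blue points reach furthest from the ticks for VPS2.1, VPS2.2, VPS24.1, VPS46.2 and VPS9B. Red points do so for SEC5A, SEC6 and SECE1.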

How the data were processed

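Total RNA of 6 whole-seedling samples was measured on ATH1 arrays. The authors deposited log2 values, 1 per probe set, made with RMA in the affy package, per the submitters' processing notes. Their versions were not given in the sources used here. RMA gives all arrays a common distribution, which removes array-wide differences, and it understates changes of weak signals.

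Of 22810 probe sets, 64 AFFX controls were left out and 22746 tested. The platform annotation gives 13513 of them 1 gene and 503 several, and 8730 are unnamed here. Loci came from RefSeq's TAIR10.1 table, in which all 22 genes were found. Other lists were matched by symbol or synonym, and 3 matches to other proteins were dropped, among them CHC1, here a chromatin protein, and RABBIT EARS.

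The genotypes were set against each other by lmFit and eBayes of limma 3.58.1 (R 4.3.3), two-sided, without a replicate block, with Benjamini-Hochberg adjustment over all tested probe sets and calls at 0.05. The labels name biological replicates, and 3 arrays a group limit precision. The fit was tested on simulated data. Named were, by rule, called genes, the 5 with the lowest p and the highest and lowest means per group, and called genes and the 2 with the lowest p per list. The other genes named were chosen after their values were seen. The genes, lists and alternatives were chosen with earlier results of these data known. Figures used matplotlib 3.10.9 in Python 3.11.15.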

Additional observations from a re-analysis of the deposited data

Results flagged for a closer look

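Outside the comparison, the control probe set for U12639 averaged 8.05 in actin2-5 and 4.42 in wild type, a log2 difference of 3.63 (limma adjusted p = 3.45e-07). No trafficking gene was flagged here. Groups of 3 arrays are too small for a test of outlying samples. The single wild-type arrays that lay apart for VPS9B, VPS24.1, VPS2.1 and VPS2.2 were therefore described without a test.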

How the results depend on the processing

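With 3 arrays a group, changes under about 1.3-fold were often beyond the precision of these data. The cause of each shift below was not tested, except that a stricter threshold calls fewer, and a looser threshold more, by construction. Over the whole array, 750 probe sets were called, against 323 at adjusted p under 0.01, 1210 at adjusted p under 0.1, 283 with the 25S covariate, 103 without actin2-5 arrays 1 and 3, and 290 to 896 with 1 array left out. The count of trafficking genes called was 0 in each setting, and PRA1.B6 passed at -0.475 without wild-type replicate 1. The sign turned in 7 genes. With 1 array left out, VPS9B ran from -0.013 to 0.29, VPS2.1 from -0.11 to 0.12, VPS24.2 from -0.098 to 0.0067, VPS22 from -0.0233 to 0.12, SEC6 from -0.058 to 0.19, SECA2 from -0.098 to 0.032 and SEC22 from -0.053 to 0.053. With the 25S covariate VPS24.2, VPS22, SEC6 and SEC22 were at 0.023, -0.021, -0.046 and 0.0598, and without actin2-5 arrays 1 and 3 at 0.067, -0.0233, -0.0233 and 0.063. SEC6 and SEC22 were at -0.0049 and 0.0044 with array weights, and SECA2 was at 0.017 with repeated quantile normalization. With the replicate number as a block, 907 probe sets and 0 trafficking genes were called, with SEC15B at 0.23 (adjusted p = 0.219); same-numbered arrays deviated together at correlations of only 0.062, 0.087 and 0.083, though each correlated best with its own number, a hint from the data and not the design.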
